A study of Mus musculus with 8 samples.

Results

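The endothelial genes of the embryonic mouse lung were followed across 8 RNA-seq libraries of strain C57BL/6. The set was a list of 38 gene symbols, and each of the 38 matched 1 record among the 23997 symbols of the files. The list held receptors of vascular endothelial growth factor (VEGF) and angiopoietin, junction proteins, transcription factors and markers of capillaries, arteries and lymphatic vessels. The series used translating ribosome affinity purification (TRAP), in which ribosomes carrying a tagged protein are pulled down from labelled cells and their mRNA is sequenced. Here the pulldown was through the ribosomal protein L10, the labelling was induced with tamoxifen, and by its title the series addressed Sox9 progenitors, the epithelial tip cells of the growing lung. The driver of the labelling and the nature of the Sox9 mutation are not given in the labels.

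The groups were TRAP and whole lung at embryonic day 17 (E17), TRAP and whole lung at E14, each a single wild-type library, and E16 TRAP in 2 Sox9 mutant and 2 wild-type samples. All samples shared the strain and the tamoxifen labelling. A second day, E13, stands in the E16 titles without explanation. The design text calls the E14 counterpart of TRAP a supernatant, whereas the label of that library calls it whole lung homogenate, and the label is followed here. The labels do not tie replicates to separate animals, and p-values therefore measure only the spread between libraries. Depth, inferred from the bounds that the authors deposited, was 9783768 fragments in E14 TRAP, the shallowest library, and up to 21500523 in the others. Sox9 itself measured 12.8 and 11.03 FPKM in mutant TRAP against 35.9 and 36.4 FPKM in wild-type TRAP, lower in both mutant libraries. In E14 TRAP a median of 45.1 fragments stood behind a member, against 1021 in E14 whole lung, so the low TRAP values carry the largest counting error.

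Endothelial cells line every vessel, and in the fetal lung they form the capillary plexus that grows around the branching epithelium and later makes the gas exchange surface. VEGF acts through KDR (VEGFR2) and FLT1 (VEGFR1), and VEGF-C acts through FLT4 (VEGFR3) on lymphatic vessels. Angiopoietins act through TEK (TIE2), with TIE1 as its partner, and ETS factors such as ERG bind a GGAA core at many endothelial genes. Lung capillaries contain a general type, marked among others by Gpihbp1 and Aplnr, and a gas exchange type called the aerocyte, marked among others by Car4, Ednrb and Apln.

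The RefSeq promoter table (build GRCm38.p6, the mm10 assembly) held 20 of the 38 members. The 250 bases before the start are shown for 4 of them: Tie1 and Kdr, whose mRNA was strongly depleted in TRAP, Clec14a, the pan-endothelial gene with the largest difference between stages, and Egfl7, which kept much of its level in TRAP. Capitals mark AGGAAG, an ETS-type motif, or its reverse complement CTTCCT.
Tie1, chr4:118489850-118490099, minus strand: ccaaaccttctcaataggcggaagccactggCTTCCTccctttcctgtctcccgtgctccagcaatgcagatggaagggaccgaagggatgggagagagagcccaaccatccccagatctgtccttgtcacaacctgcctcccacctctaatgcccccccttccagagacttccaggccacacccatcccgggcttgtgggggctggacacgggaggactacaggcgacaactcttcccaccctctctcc
Kdr, chr5:75978456-75978705, minus strand: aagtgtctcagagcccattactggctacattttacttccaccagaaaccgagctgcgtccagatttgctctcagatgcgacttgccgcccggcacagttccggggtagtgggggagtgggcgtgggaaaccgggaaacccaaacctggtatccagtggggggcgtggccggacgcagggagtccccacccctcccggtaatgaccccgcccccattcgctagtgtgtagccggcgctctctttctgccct
Clec14a, chr12:58269259-58269508, minus strand: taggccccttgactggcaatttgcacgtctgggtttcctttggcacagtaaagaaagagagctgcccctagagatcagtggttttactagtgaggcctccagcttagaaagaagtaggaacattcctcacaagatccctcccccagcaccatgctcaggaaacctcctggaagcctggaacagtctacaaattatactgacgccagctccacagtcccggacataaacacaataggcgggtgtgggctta
Egfl7, chr2:26580833-26581082, plus strand: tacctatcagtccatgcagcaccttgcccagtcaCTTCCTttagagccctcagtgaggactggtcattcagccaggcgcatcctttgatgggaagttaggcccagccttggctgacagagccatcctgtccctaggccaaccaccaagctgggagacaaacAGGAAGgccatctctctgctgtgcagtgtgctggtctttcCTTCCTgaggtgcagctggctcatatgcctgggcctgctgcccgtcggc
The Egfl7 window held 3 matches and the Tie1 window 1, while the Kdr and Clec14a windows held 0. Of the 20 member windows, 9 (45.0%) held at least 1 match on either strand, against 29.5% of all 32851 windows of the same length. A match is a run of letters and not a tested site.

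Expression is given as FPKM, fragments scaled to transcript length and to library size, which allows levels of different genes to be compared. In whole lung at E17 the highest member was Ramp2, a subunit of the adrenomedullin receptor, at 144 FPKM, followed by Egfl7, a secreted vascular protein, at 114 FPKM. Cd34, Pecam1, Plvap and Cdh5 came next, at 77.9, 72.3, 70.5 and 66.4 FPKM. At the other end stood Car4, which encodes carbonic anhydrase 4, at 0.395 FPKM, and Vwf, the gene of von Willebrand factor, at 2.51 FPKM. The defining endothelial markers were thus well represented in both whole lung libraries, and the aerocyte marker Car4 was close to undetected in both.

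**Figure D1:**
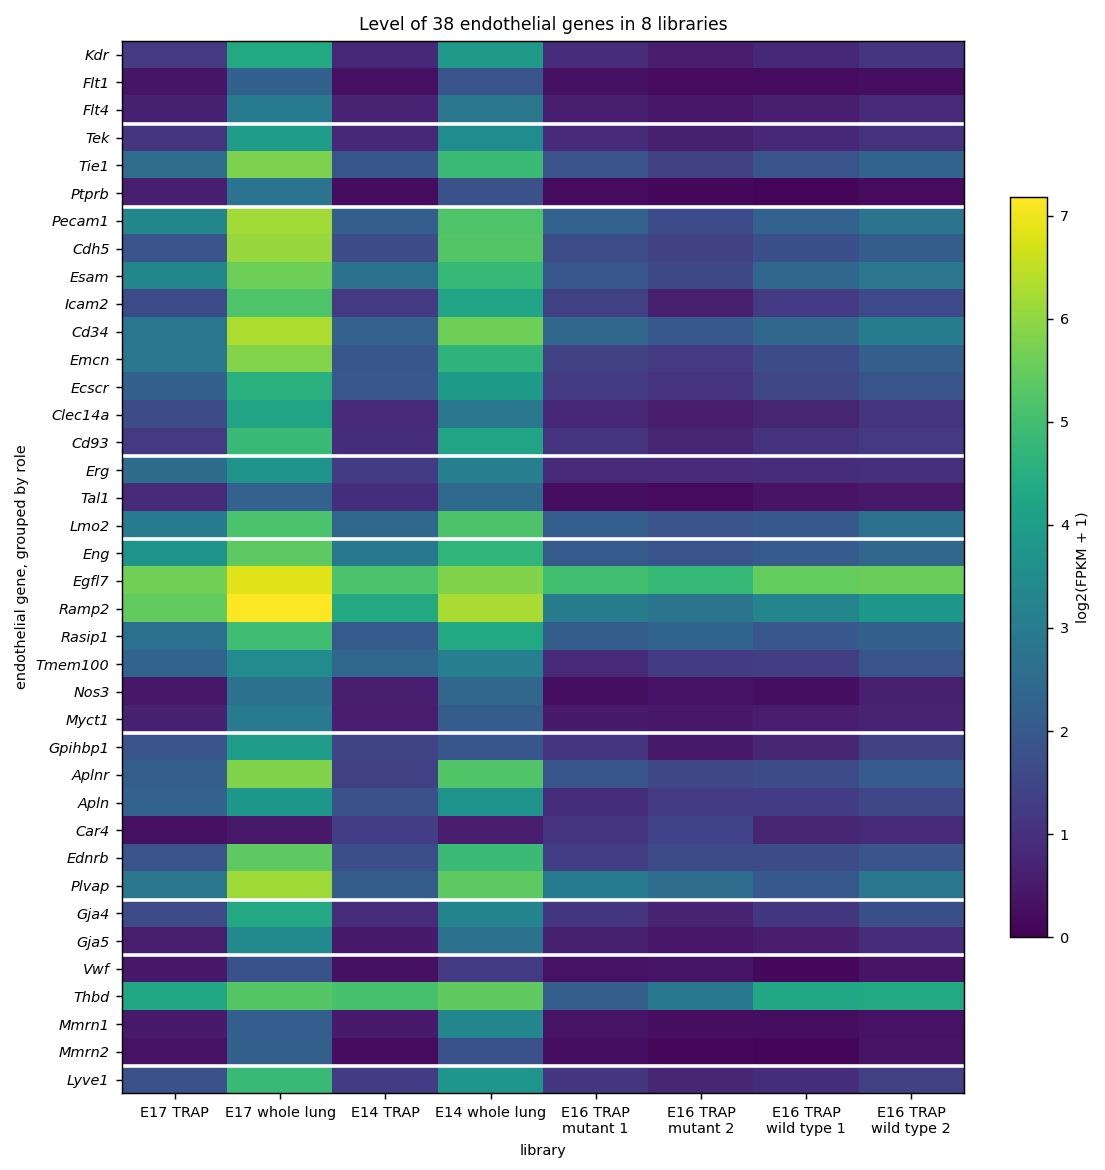
Levels of the 38 endothelial genes as log2(FPKM + 1), with genes in rows grouped by role and the 8 libraries in columns. The 2 whole lung columns are the brightest for nearly every gene. Egfl7 is also bright in the TRAP columns, Thbd in those other than the mutant, and Ramp2 in those of E17 and E14.

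Comparing whole lung at E17 with whole lung at E14 asks how the vascular compartment grew and matured. Most endothelial genes were higher at E17. The FPKM summed over the 38 members was 1230 at E17 against 732 at E14, a ratio of 1.68. With 1 library at each stage there is no test. A gene was counted where FPKM + 1 differed at least 2-fold and its mean over both libraries was at least 1 FPKM. By this rule 7 of the 37 members compared were higher at E17 and 1 was lower. With the libraries set to a common total of records of at least 200 bases, 4 were higher (Gpihbp1, Clec14a, Emcn and Gja4), so Lyve1, Icam2 and Egfl7 passed only on the deposited scale. Of all 12493 records, 4.83% were at least 2-fold higher and 1.3% at least 2-fold lower. The median log2 difference was 0.66 for the members and -0.01 for all records. In bulk tissue, more cells of a type and more RNA per cell cannot be told apart.

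The pan-endothelial genes set the scale. A group of 10 genes shared by endothelial cells at large (Pecam1, Cdh5, Tie1, Tek, Esam, Egfl7, Erg, Clec14a, Ecscr and Rasip1) were all higher at E17, with a median log2 difference of 0.80. Pecam1, the CD31 adhesion molecule, had 72.3 FPKM at E17 (deposited bounds 69.3 to 75.2) against 35.7 at E14 (34.0 to 37.3), a ratio of 2.03. Cdh5, the VE-cadherin of adherens junctions, had 66.4 FPKM at E17 against 37.3 FPKM at E14, a ratio of 1.78. These genes lay between 1.40 (Tek) and 2.76 (Clec14a) as FPKM ratios, and for each of the 10 the deposited bounds of the stages did not overlap. The bounds are read here as counting error and do not include differences between animals. For Pecam1, Tek and Egfl7 they may hold more than counting error. Counted this way, 31 of 37 members were higher and 2 lower with bounds apart, against 29.2% and 30.5% of all records.

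Growth factor receptors came next. Kdr had 19.4 FPKM at E17 against 13.6 at E14, Flt1 3.73 against 2.65 FPKM, and Tek 14.3 against 10.2 FPKM, so the 3 had FPKM ratios of 1.40 to 1.43. Flt4 had 6.61 FPKM at E17 and 6.24 FPKM at E14, with bounds that overlapped. Tie1 had 53.3 FPKM at E17 against 28.7 FPKM at E14, a ratio of 1.86. Ptprb, the endothelial phosphatase VE-PTP that acts on TEK, had 5.60 FPKM at E17 against 2.41 FPKM at E14, a ratio of 2.33.

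Of 9 junction and surface genes, 3 were past 2-fold. Clec14a, a C-type lectin of endothelial contacts, had 17.4 FPKM at E17 against 6.30 FPKM at E14, a ratio of 2.76. Emcn, the sialomucin endomucin, had 56.6 FPKM at E17 against 24.4 FPKM at E14, and Icam2, an adhesion molecule that binds leukocyte integrins, 36.03 against 17.2 FPKM. Esam, Cd34, Ecscr and Cd93 had ratios of 1.76, 1.65, 1.64 and 1.59, below 2-fold. Among signalling genes Egfl7 was at 114 FPKM at E17 against 55.5 FPKM at E14 and passed 2-fold on the deposited scale. Ramp2 had 144 FPKM at E17 against 75.6 FPKM at E14, a ratio of 1.91. Myct1, a target of ETS factors in endothelium, had a ratio of 2.08 on the FPKM scale but a log2 difference of 0.87 on the FPKM + 1 scale. Eng, the co-receptor endoglin, and Rasip1, a regulator of vascular lumen formation, had ratios of 1.61 and 1.56. Nos3 (endothelial nitric oxide synthase) and Tmem100, a membrane protein downstream of BMP signalling, each had a ratio of 1.31.

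Capillary markers diverged. Gpihbp1, which carries lipoprotein lipase to the capillary lumen, had 14.8 FPKM at E17 (bounds 12.7 to 16.9) against 2.82 at E14 (2.04 to 3.59). This ratio of 5.25 was the highest of all 38 members and lay 1.25 log2 units above the core median on the FPKM + 1 scale. Aplnr, the apelin receptor, had 55.4 FPKM at E17 against 36.9 FPKM at E14, and Plvap, the diaphragm protein of fenestrae and caveolae, 70.5 against 41.0 FPKM (1.72). The aerocyte markers, like every other member, had lower ratios than Gpihbp1. Ednrb, the endothelin receptor type B, had a ratio of 1.43. Apln, the ligand apelin, had 1.12 with overlapping bounds, and Car4 had 0.861, at 0.395 FPKM against 0.458. Car4 was left out of the counts because its mean was under 1 FPKM. On the FPKM + 1 scale the general marker Aplnr had a log2 difference of 0.574, near the 0.501 of Ednrb. A contrast between the capillary types thus rested mainly on Gpihbp1. Both arterial connexin genes were higher at E17, with Gja4 at 19.1 FPKM against 8.36 FPKM at E14 (ratio 2.28) and Gja5 at 9.64 FPKM against 5.47 FPKM (1.76).

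The lymphatic and blood-lineage members did not share 1 direction. Lyve1, a hyaluronan receptor of lymphatic endothelium and of some macrophages, had 28.1 FPKM at E17 against 12.8 FPKM at E14, a log2 difference of 1.08. Mmrn1, a multimerin of lymphatic endothelium and platelets, went the other way, with 3.42 FPKM at E17 (bounds 3.04 to 3.80) against 8.92 at E14 (8.33 to 9.52). Its log2 difference of -1.17 made it the only member at least 2-fold lower. The related Mmrn2, a matrix protein of blood vessels, had 3.56 FPKM at E17 against 2.53 FPKM at E14. Tal1 and Lmo2, which act as partners in blood and endothelial progenitors, had 3.78 FPKM at E17 against 4.50 at E14 and 34.7 against 35.3 FPKM, with overlapping bounds, whereas Erg had 12.03 FPKM at E17 against 7.63 at E14. Thbd, the anticoagulant receptor thrombomodulin, had 37.8 FPKM at E17 against 41.8 FPKM at E14, with bounds apart. Vwf, at 2.51 FPKM at E17 against 1.31 at E14, had a ratio of 1.91.

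**Figure D2:**
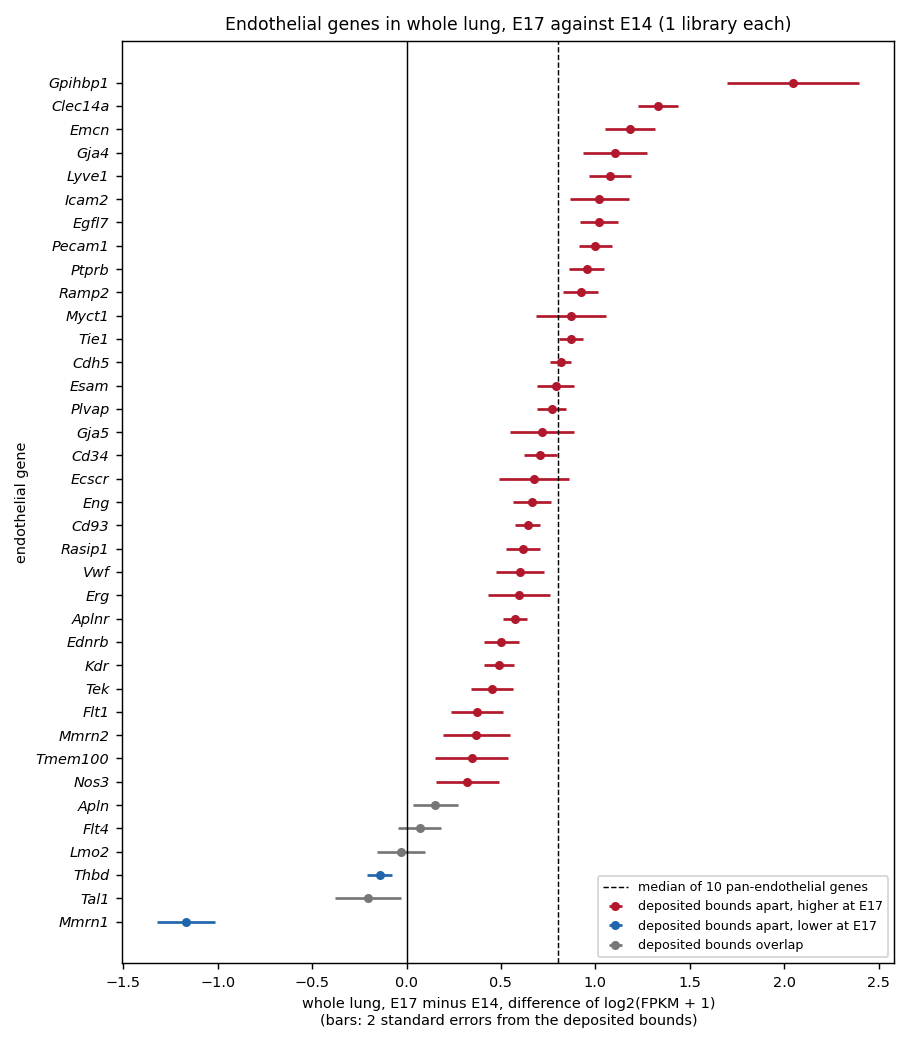
Difference of log2(FPKM + 1) between E17 and E14 whole lung for the 37 members with a mean of at least 1 FPKM. Bars are 2 standard errors taken from the deposited bounds, which do not include differences between animals. Gpihbp1 stands at 2.05, most members lie around the dashed core median of 0.80, and Mmrn1 lies at -1.17.

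Other gene lists gave the setting of these values. Of 28 further endothelial genes compared, 10 were at least 2-fold higher at E17 and 0 lower (median log2 0.77). They included the water channel gene Aqp1 (log2 1.63), the receptor genes Calcrl (1.54) and Acvrl1 (1.53), and Gpr182 (1.38). Among lymphatic genes the chemokine gene Ccl21a had 14.1 FPKM at E17 against 0.0197 FPKM at E14, Pdpn 23.5 against 8.97 FPKM and Sema3d 1.74 against 4.81 FPKM. The E14 value of Ccl21a is near the floor and lay below E14 TRAP, at 1.66 FPKM, whereas E17 TRAP had 1.91 FPKM. Pdpn was higher in TRAP than in whole lung, at 328% at E17 and 286% at E14, while Sema3d stood at 30.5% and 16.9%. Which cells gave these whole lung values was not tested. Prox1, the lymphatic master regulator, had 0.257 FPKM at E17 against 0.8002 FPKM at E14 and was named after its values were seen. The median log2 difference was 0.79 for epithelial genes, 0.23 for mesenchyme, -0.11 for smooth muscle and pericytes and 0.28 for macrophages. Erythroid and blood progenitor genes had a median of 0.77, but Slc4a1 (3.84 FPKM at E17 against 12.03 at E14) and the embryonic globin genes Hbb-y and Hba-x (log2 -5.87 and -4.21) were lower. Lyve1, Tal1, Lmo2 and Mmrn1 are shared with such cells, whose part in these differences was not tested.

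The comparison of TRAP with whole lung asks how much endothelial mRNA the pulldown still held. Endothelial genes were lower in TRAP at both stages. The FPKM summed over the members was 221 in E17 TRAP against 1230 in E17 whole lung, and 155 in E14 TRAP against 732 in E14 whole lung, or 18.0% and 21.1% of the whole lung sum. A fit of log2(FPKM + 1) over the 4 libraries with stage as a term (limma, Benjamini-Hochberg adjustment over 12320 records) called 37 members lower. This fit has 1 residual degree of freedom, which measures how far the stages disagreed. Its p-values combine that with a variance shared across records, which carries 4.466 prior degrees of freedom and so the larger weight. Of all records tested, 17.1% were called lower and 23.6% higher. In all 37 members both TRAP values lay below both whole lung values, as in 27.7% of all records, while 31.8% lay apart the other way. Car4 did not reach the mean of 1 FPKM, and 11 of the 37 reached it only through whole lung and so had to differ. The other 26 reached it in TRAP as well. The median log2 difference was -2.22, against 0.05 over all records, and without a stage term 21 of the 37 members were called.

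The log2 differences were largest for Cdh5 and Aplnr. For Cdh5, TRAP gave 2.72 FPKM and whole lung 66.4 FPKM at E17, while at E14 TRAP gave 2.13 and whole lung 37.3 FPKM (log2 -3.90, SE 0.17, adjusted p = 0.000389). Aplnr had 3.53 against 55.4 FPKM at E17 and 1.57 against 36.9 FPKM at E14 (log2 -3.76, SE 0.13, adjusted p = 0.000275). TRAP thus held 4.10% of the whole lung level of Cdh5 at E17 and 5.71% at E14, and 6.37% and 4.27% of that of Aplnr. Cd93 (log2 -3.45), Cd34 (-3.42), Ednrb (-3.36), Plvap (-3.29), Icam2 (-3.28), Kdr (-3.12) and Tie1 (-3.08) also fell by more than 3 log2 units. The E17 values of Kdr were 1.28 FPKM for TRAP and 19.4 FPKM for whole lung, and the E14 values 0.739 and 13.6 FPKM.

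Depletion was uneven among the members. For the 37 members with at least 1 FPKM in whole lung, TRAP held a median of 10.3% of the whole lung FPKM at E17 and 11.3% at E14, while over all such records the medians were 104% and 99.8%. In 14 members it held under 10% at both stages. In 5 members it held over 25% at both stages, namely Thbd, Egfl7, Tmem100, Eng and Ramp2. Thbd stood at 18.7 FPKM in E17 TRAP against 37.8 in E17 whole lung, and at 33.1 in E14 TRAP against 41.8 in E14 whole lung, which are 49.5% and 79.3%. Its log2 difference was -0.65 (SE 0.17, adjusted p = 0.0305), and the call was lost with no filter, without the trend in limma and without the stage term. The calls of Egfl7, Tmem100, Eng and Ramp2 were also lost without the stage term. That loss was not particular to members that TRAP kept. It extended to Pecam1 (log2 -2.94), Emcn (-2.85), Gja4, Clec14a, Esam, Mmrn1, Myct1, Ptprb, Erg, Vwf and Gpihbp1. Egfl7 stood at 48.9 FPKM in E17 TRAP against 114 in E17 whole lung, and at 34.4 in E14 TRAP against 55.5 in E14 whole lung, which are 43.0% and 62.0% (log2 -0.94, SE 0.15, adjusted p = 0.00653). Tmem100 held 38.8% and 57.7%, Ramp2 29.6% and 25.9%, and Eng 29.8% and 25.1%, E17 before E14. The Eng record shares 61 bases with Fpgs, which had 16.6 FPKM in E17 TRAP and 18.4 in E14 TRAP, and counting by strand is not stated. Egfl7 likewise overlaps the records of Mir126 and Mir126b, Cd34 that of Gm16897 and Nos3 that of Atg9b.

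Some members kept a different share at each stage. Erg stood at 4.83 FPKM in E17 TRAP against 12.03 in E17 whole lung (40.2%), and at 1.45 in E14 TRAP against 7.63 in E14 whole lung (18.9%), resting on 201 fragments in E17 TRAP and 36 in E14 TRAP. Gpihbp1 had 2.71 against 14.8 FPKM at E17 (18.3%), and 1.80 against 2.82 FPKM at E14 (63.9%), where only 14 fragments stood behind the TRAP value. Its call (adjusted p = 0.0470) was lost with a pseudocount of 0.1, with no filter, with a minimum of 5 FPKM, with centring, without the trend and without the stage term. Apln kept 28.3% at E17 and 20.5% at E14. Whether depletion differed between stages could not be tested, since each stage has 1 library per fraction. Between stages within TRAP, the members summed to 221 FPKM at E17 against 155 FPKM at E14, a ratio of 1.43. As a share of each library's whole FPKM total they made 0.0211% at E17 and 0.0209% at E14. Records under 200 bases held 37.7% of that total in E17 TRAP and 14.1% in E14 TRAP, and with them left out of a common total the ratio was 1.39.

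**Figure D3:**
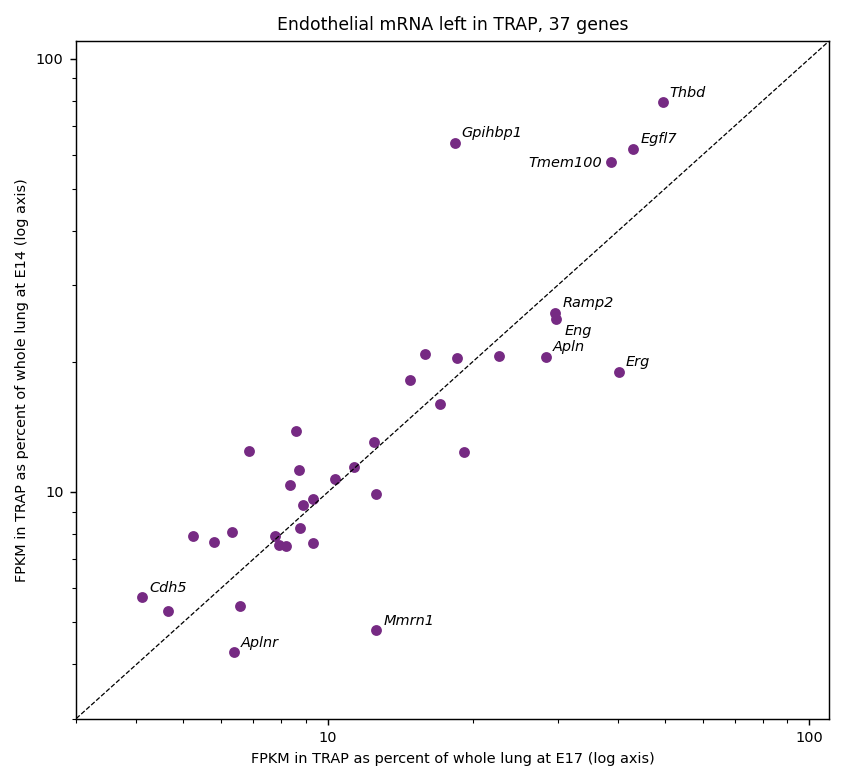
FPKM in TRAP as a percent of whole lung for 37 members, E17 on the horizontal and E14 on the vertical log axis, with a dashed line of equality. Most points cluster near 10% on both axes, and Thbd, Egfl7, Tmem100, Eng and Ramp2 lie above 25% on both. Erg lies to the right of the line and Gpihbp1 far above it.

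Further lists were described in the same way. Of 28 other endothelial genes tested, 25 were called lower and 3 did not pass (median log2 -2.10), with Cldn5, a tight junction gene of vessels, at -2.69, Tspan18 at -2.61, the transcription factor gene Sox18 at -2.57 and the caveolar gene Sdpr at -2.13. The 3 that did not pass, named after their values were seen, were Ephb4, Hhex and Gpr116, at 0.14, -0.05 and -0.51. Of those called lower, Robo4, Sox7, Eltd1, Fgd5, Stab1, She, Gpr182, Cyyr1 and Ushbp1 reached the minimum of 1 FPKM only through whole lung and so had to differ. TRAP held medians of 9.95% at E17 and 14.6% at E14 for mesenchyme genes, 11.1% and 23.2% for smooth muscle and pericyte genes, and 12.5% and 10.2% for macrophage genes. Epithelial genes stood at 259% at E17 and 417% at E14, and 22 of 23 were called higher. In the VEGF, angiopoietin and BMP9 list 4 of 13 genes tested fell, including Angpt1 (-2.27), Vegfc (-1.64) and Figf (-1.47), and 2 rose, including the BMP inhibitor gene Smad6 (1.00). Angpt1 too reached the minimum only through whole lung.

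The comparison of the Sox9 mutant with the wild type asks whether mRNA recovered from the labelled cells differs when Sox9 is mutated. Endothelial genes were scarce in these TRAP libraries, and few of them differed. Averaged across the 4 libraries, 23 of the 38 members reached 1 FPKM. Of these, 3 (Cd93, Gja4 and Lyve1) reached it only through the wild type, and Car4 only through the mutant. Of the 23 members, 4 fell, 0 rose and 19 did not pass (limma, Benjamini-Hochberg adjustment over 11872 records). That share is near the 14.3% of all records that were called lower, with 17.4% called higher. The median log2 difference was -0.40, against 0.01 over all records.

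The 4 that fell were Thbd, Egfl7, Esam and Ecscr. Thbd had 3.48 and 6.55 FPKM in the mutant against 18.9 and 19.7 FPKM in the wild type. Means with SD were 5.01 ± 2.17 FPKM in the mutant and 19.3 ± 0.549 FPKM in the wild type, n = 2 in each. The log2 difference was -1.80, with a standard error of 0.23 and an adjusted p of 0.00303 by limma. Both mutant libraries lay far below both wild-type libraries. Egfl7 had 30.9 and 26.8 FPKM in the mutant against 43.7 and 46.3 FPKM in the wild type (log2 -0.63, SE 0.08, adjusted p = 0.00286), without overlap. Both genes are among the 5 for which TRAP held over 25% of whole lung at E17 and at E14. Thbd and Egfl7 passed in each of the alternatives run for the mutant. In those that leave out a library, 1 genotype has a single library, which is assumed to vary like the pair in the other genotype.

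Esam, an adhesion molecule of tight junctions, had 2.86 and 1.94 FPKM in the mutant against 4.22 and 6.26 FPKM in the wild type (log2 -0.87, SE 0.20, adjusted p = 0.0230). Ecscr, an endothelial surface regulator of migration, had 1.33 and 1.17 FPKM in the mutant against 1.87 and 2.64 FPKM in the wild type (log2 -0.52, SE 0.14, adjusted p = 0.0408). Esam was lost with no filter and without wild-type replicate 2, and Ecscr also with limma-voom and without either mutant replicate. Leaving out wild-type replicate 2 left 2 members lower and called Plvap higher. Without wild-type replicate 1 or mutant replicate 1, 7 members were called lower.

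Several further members lay lower in the mutant without passing. Ramp2 had 7.25 and 5.79 FPKM in the mutant against 8.67 and 13.1 FPKM in the wild type (log2 -0.64, adjusted p = 0.0521), and Emcn 1.65 and 1.27 against 2.16 and 3.54 FPKM (log2 -0.63, adjusted p = 0.0555). Ramp2 did pass with a pseudocount of 0.1, a minimum of 5 FPKM, centring, the common total, summed records, and without wild-type replicate 1 or mutant replicate 1. Emcn passed with centring, the common total and without wild-type replicate 1. Pecam1 had 3.78 and 2.05 FPKM in mutant TRAP against 3.76 and 5.84 FPKM in wild-type TRAP and overlapped between groups, as did Icam2, Cd93, Lmo2, Rasip1, Aplnr, Ednrb, Plvap and Lyve1. In all, both mutant values lay below both wild-type values in 13 of the 23 members, where 33.3% of all records did so. Beyond Thbd, Egfl7, Esam, Ecscr, Ramp2 and Emcn, the 13 held Tie1, Cdh5, Cd34, Eng, Tmem100, Apln and Gja4, which did not pass. Among them Gja4 was tested only through its higher wild-type values. Both mutant values lay above both wild-type values only in Car4, at 1.11 and 1.74 FPKM against 0.659 and 0.848 FPKM (limma log2 0.46, adjusted p = 0.0829). Of all records, 36.8% lay apart that way. The wild-type mean of Car4 was 0.753 FPKM, so it was tested only through its higher mutant values. Among the members that overlapped, Plvap (log2 0.37) and Rasip1 (0.12) also had positive differences. The 15 members below the minimum, Kdr, Flt1, Flt4, Tek, Ptprb, Clec14a, Erg, Tal1, Nos3, Myct1, Gpihbp1, Gja5, Vwf, Mmrn1 and Mmrn2, ranged from 0.0664 to 1.67 FPKM. The mutant mean was below the wild-type mean in 11 of the 15, and none of them was called when the fit was run with no filter.

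**Figure D4:**
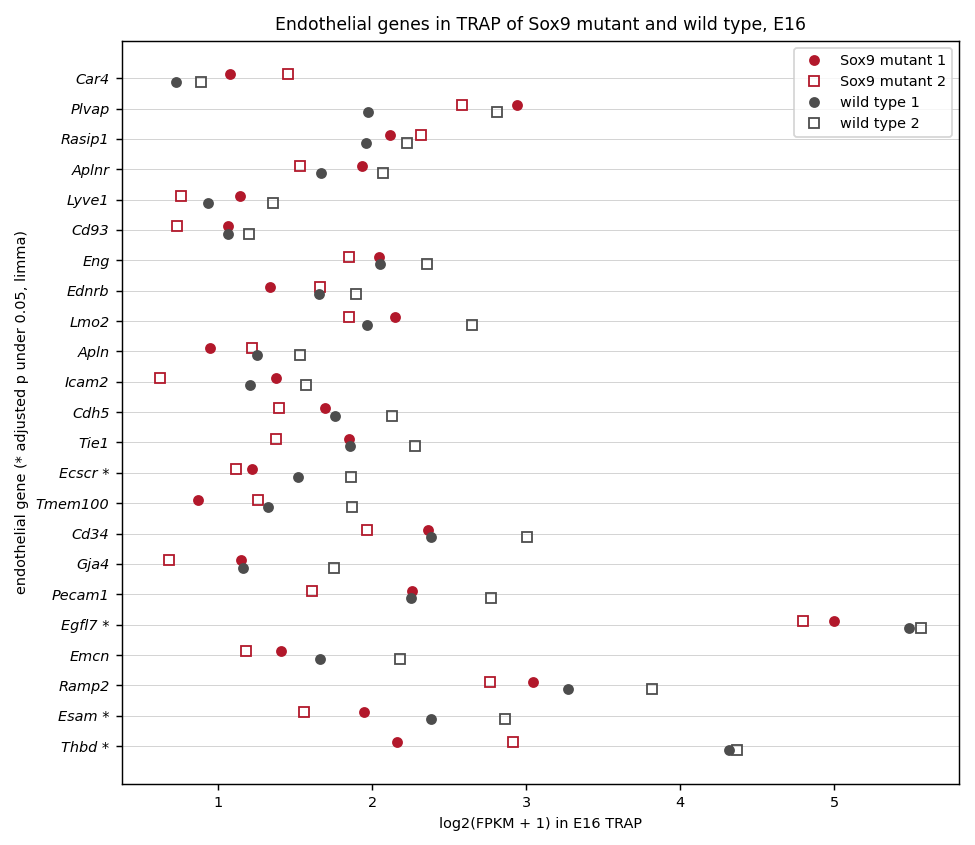
Values of the 23 tested members in the 4 E16 TRAP libraries as log2(FPKM + 1), red for Sox9 mutant and grey for wild type, circles for replicate 1 and squares for replicate 2, with asterisks at the 4 genes that passed limma's test. Both mutant values of Thbd and of Egfl7 lie below both wild-type values, as they do in 13 of the 23 genes.

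The summed level shows how much of the difference rests on few genes. Over all 38 members the sum was 96.6 and 82.1 FPKM in the mutant against 123 and 160 FPKM in the wild type. Egfl7 and Thbd made up 35.6% and 40.6% of it in the mutant and 50.8% and 41.3% in the wild type. Without both genes the sum over the remaining 36 was 62.2 and 48.7 FPKM in the mutant against 60.6 and 93.6 FPKM in the wild type, and the groups overlapped. Wild-type replicate 2 was the highest of the 4 libraries. As a share of the whole FPKM total the members made 0.0126% and 0.00906% of the mutant libraries, against 0.00755% and 0.0197% of the wild-type libraries, and the groups overlapped. Records under 200 bases held 53.5% of that total in wild-type replicate 1. Under the common total without them the sums were 91.4 and 76.5 FPKM in the mutant against 112 and 141 FPKM in the wild type, without overlap.

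Markers of other cells were measured beside these values. Epithelial genes summed to 4137 and 4008 FPKM in the mutant against 3056 and 3021 FPKM in the wild type, and of 23 tested 16 rose and 2 fell, with a median log2 difference of 0.39. Mesenchyme genes summed to 223 and 311 FPKM in the mutant against 337 and 433 FPKM in the wild type. Of 19 tested, 17 had a log2 difference below 0, 3 fell (Vim, Gli1 and Foxf1) and 1 rose (Dcn), with a median of -0.31 and no marker at 0 in any library. Smooth muscle and pericyte genes summed to 55.0 and 74.4 FPKM in the mutant against 64.0 and 92.1 FPKM in the wild type, and 0 of 7 passed. Macrophage genes summed to 4.26 and 5.54 FPKM in the mutant against 4.86 and 4.50 FPKM in the wild type, with Ptprc listed at 0 in both wild-type libraries. Their part in the endothelial values was not tested.

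Of 13 other endothelial genes tested in the mutant, 3 fell, 3 rose and 7 did not pass (median log2 -0.11). Sdpr had 24.99 and 20.0011 FPKM in the mutant against 6.18 and 6.20 FPKM in the wild type (log2 1.70, adjusted p = 0.000269). Gpr116 rose (log2 1.26), as did the homeobox gene Hhex (0.71), while Aqp1 fell (-1.01). In the VEGF, angiopoietin and BMP9 list 5 of 13 genes tested rose, namely Id1 (1.37), Angpt1 (0.80), Nrp2 (0.79), Vegfc (0.76) and Vegfa (0.43). The 2 that fell were the VEGF co-receptor gene Nrp1 (-1.04) and the ligand gene Vegfb (-0.39). Angpt1, Vegfc and Vegfa were named after their values were seen. The wild-type values of Angpt1 lay under 1 FPKM, so it was tested only through its higher mutant values. In the capillary list Cd36, a fatty acid transporter gene, rose by 2.18 log2 units and Sema3c by 1.40, and the lipase gene Lpl fell by 0.91. These genes were not called lower in TRAP than in whole lung. TRAP held 118% and 77.6% of the whole lung level of Cd36, 175% and 156% of Sema3c and 108% and 77.7% of Lpl, E17 before E14. Of the 14 genes of this list tested in TRAP against whole lung, 7 were called lower, 1 higher and 6 did not pass. Among those called lower, Glp1r reached the minimum only through whole lung. Whether capillary cells gave the mutant differences was not tested.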

How the data were processed

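Each library had 1 deposited table of FPKM with lower and upper confidence bounds, per the file headers. The submitters' processing notes name TopHat2 2.0.14, Bowtie2 2.2.3, Cufflinks 2.2.1, Cuffnorm and the build mm10. How library totals were set is not stated, and values were used as deposited by the authors. Libraries were grouped by title.

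The depth behind a value was inferred by squaring FPKM over its standard error, a bound being 2 standard errors away. In 22 of 34 members, and in 72.4% of 12167 records, the bounds of all libraries shared 1 factor (within 0.1 log2). Elsewhere they may hold more than counting error. limma 3.58.1 (R 4.3.3, eBayes with trend, two-sided) was run on log2(FPKM + 1) for records averaging 1 FPKM or more, with Benjamini-Hochberg adjustment over all records at 0.05. On this scale changes of low genes are understated. Residual degrees of freedom were 2 (mutant) and 1 (TRAP), and prior degrees of freedom, from the variance shared across records, 3.725 and 4.466. The fits were tested on simulated data. Replicates differed by 4.65 (wild type) and 6.59 (mutant) times counting error in mean square and were kept separate.

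The members, 11 further gene lists and the 10 core genes were chosen with earlier results of these data known. All members are named, though not each with its values in every comparison. Of other lists, up to 4 genes with the smallest p, or the largest difference where no test was run, are named.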

Additional observations from a re-analysis of the deposited data

Results flagged for a closer look

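Car4 lay on opposite sides of whole lung at E17 and E14. Its log2 difference of TRAP against whole lung was -0.15 at E17, where TRAP had 0.256 FPKM and whole lung 0.395 FPKM. At E14 the difference was 0.77, where TRAP had 1.49 FPKM and whole lung 0.458 FPKM. These values rested on few fragments, 6 in TRAP and 10 in whole lung at E17, and 21 and 16 at E14. At E17 the TRAP value lay within the deposited bounds of whole lung (0.140 to 0.649 FPKM), so its side is not settled. The difference between stages was not tested, since each has 1 library per fraction.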

How the results depend on the processing

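In TRAP against whole lung the median log2 difference of the members was -3.14 with a pseudocount of 0.1 FPKM and -2.53 with a minimum of 5 FPKM, against -2.22, and it lay between -2.31 and -2.14 when a library was left out. Without the stage term 21 members were called lower, and in the other 8 alternatives between 26 of 27 tested and 37. For whole lung, 4 members were at least 2-fold higher at E17 with a common total that omits records under 200 bases, and 23 passed a 1.5-fold threshold, against 7. Under that total the median of all records was -0.11 for the stages, -0.04 for TRAP and 0.07 for the mutant. In the mutant, 2 of 38 members tested were called lower with no filter, against 4 of 23, and 3 of only 4 tested with a minimum of 5 FPKM. Of 23 tested, 3 were called lower with limma-voom, 4 without the trend, 5 with a pseudocount of 0.1 or summed records, and 6 with centring or the common total. Under the common total 1 was called higher, against 0, namely Car4, which on the deposited scale reached 1 FPKM only through the mutant. The fit with a replicate block gave 5 lower and 1 higher (Car4) with a median of -0.40. The same-numbered libraries deviated with a correlation of 0.00721, so the numbers are no evidence of pairing. Leaving out 1 library gave 2 to 7 lower, 0 to 1 higher (Car4 without mutant replicate 1, Plvap without wild-type replicate 2) and medians of -0.64 to -0.22. Differences that did not pass and turned sign this way were Aplnr (-0.336 to 0.0646), Lmo2 (-0.652 to 0.0317), Rasip1 (-0.00953 to 0.258) and Plvap (-0.0481 to 0.786). The cause of these shifts was not tested. Low TRAP counts limit precision, with 7 members under 20 fragments in E14 TRAP.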
